A study of Rattus norvegicus with 6 samples.

Results

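The miRNAs described here are those of red blood cells and of vessel lining: miR-451, miR-144, miR-486 and miR-126a. They were chosen by name, as the rows of the count table with the stem miR-451, miR-144, miR-486, miR-126a or miR-126b, and 7 of 650 mature miRNAs matched. The 7 are rno-miR-451-5p, rno-miR-451-3p, rno-miR-144-5p, rno-miR-144-3p, rno-miR-486, rno-miR-126a-3p and rno-miR-126a-5p, and miR-126b was not analysed here. The study profiled small RNA in the trigeminal ganglion, where the sensory neurons that serve the face have their somata, in Sprague-Dawley rats aged 8 to 10 weeks. The CCI-ION group (chronic constriction injury of the left infraorbital nerve by loose silk ligatures) and the sham group (the same nerve exposed and not tied) each gave 3 libraries of the ganglion on the operated side on day 14. The rats carried no transgene or drug in the labels. The sources used here do not say whether each library came from a separate animal or whether the rats were perfused before dissection. The p-values below therefore reflect only how much these libraries vary, which may be technical.

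Red cell miRNAs reach a solid tissue mainly in blood held in its vessels, whereas miR-126 is made by the endothelial cells that line those vessels. miR-451 and miR-144 are cut from one transcript that the erythroid factor GATA1 switches on. The miR-451 hairpin is too short for Dicer and is sliced by Argonaute 2 instead. miR-486 comes from an intron of the ankyrin gene Ank1 and is known from red cells and from muscle. miR-126 sits in an intron of Egfl7, a gene of the endothelium, and in mouse and zebrafish its 3p arm sustains VEGF signalling by repressing Spred1. In a bulk ganglion, fewer cells of a type and less RNA per cell cannot be told apart.

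The 7 mature sequences are given as deposited, 5′ to 3′, with the seed (bases 2 to 8), which pairs with target mRNAs, in capitals, to show that no seed is shared.
rno-miR-451-5p: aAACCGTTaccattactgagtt
rno-miR-451-3p: aTGGTAATggttctcttgctgct
rno-miR-144-5p: gGATATCAtcatatactgtaagt
rno-miR-144-3p: tACAGTATagatgatgtact
rno-miR-486: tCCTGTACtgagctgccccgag
rno-miR-126a-3p: tCGTACCGtgagtaataatgcg
rno-miR-126a-5p: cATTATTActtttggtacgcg
No other miRNA of the table has bases 2 to 8 of any of the 7, and none differs from one of them by 2 bases or fewer over at least 19 bases compared from the first base. Their counts are therefore not split with a listed near copy. RefSeq's table for the build GRCr8 held 6 of the 7, and all 6 were identical to the deposited letters once U was read as T.

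On GRCr8 the miR-451 and miR-144 hairpins lie on the plus strand of chromosome 10, with 89 bases between them. The hairpins are shown because the 2 arms of each behaved differently in the counts; capitals mark the miR-451-5p arm in the first and both arms in the second.
Mir451a (chr10:63459569-63459640): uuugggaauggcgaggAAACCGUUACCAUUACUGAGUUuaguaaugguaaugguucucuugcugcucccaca
Mir144 (chr10:63459397-63459479): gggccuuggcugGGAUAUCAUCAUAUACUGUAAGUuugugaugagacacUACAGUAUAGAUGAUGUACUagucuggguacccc
Only 5 bases separate the annotated arms of miR-451, against 14 for miR-144. miR-126a-5p (chr3:29813182-29813202) and miR-126a-3p (chr3:29813219-29813240) lie on the plus strand within the span of Egfl7 on the same build.

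Total miRNA counts were 6420434 to 11014970 in CCI-ION libraries and 10084327 to 12560545 in sham libraries. A count of 3, the limit that a count of 0 allows, corresponds to 0.225 to 0.483 CPM (the share of a library's miRNA counts, scaled by TMM factors) and covers counting error only. The miRNAs that mark sensory neurons were abundant in every library, with miR-182 at 18895 to 29143 CPM and miR-183-5p at 13110 to 16764 CPM. Both libraries numbered 1 stood apart from the other 4: the total behind the deposited RPM was 24259518 in CCI-ION library 1 and 24025572 in sham library 1, and 13793797 to 15228984 in the rest. Both groups carry the numbers 1 to 3, and the deviations of same-numbered libraries from their group means correlated, so a fit with the number as a block is given where it changes a count.

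Setting CCI-ION against sham asks whether the content of blood and vessel miRNAs in the ganglion differs on day 14 of the nerve injury. None of the 6 members that could be tested was called. By edgeR's quasi-likelihood test the adjusted p-values lay between 0.844 and 0.993, and with the replicate block between 0.106 and 0.945. Without adjustment, 0 of the 6 members and 46 of the 463 tested miRNAs had an edgeR p under 0.05, and with the block 1 member, miR-126a-5p, and 99 of the 463 did. DESeq2 and limma-voom, with or without the block, also called 0 of the 6. The background was 3 calls among 463 tested miRNAs (0.648%), and 54 with the block (11.7%). No member separated the groups without overlap on the CPM scale, where 64 of 463 tested miRNAs (13.8%) did. The seventh, miR-451-3p, was left out by the filter on low counts.

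miR-451-5p, the most red cell specific of these, had 135, 191 and 115 CPM in CCI-ION libraries 1 to 3, against 172, 79.4 and 108 CPM in sham libraries 1 to 3. The groups overlapped, and the widest gap within a pair of the same number was in libraries 2, where CCI-ION was the highest of all 6 and sham the lowest. The means were 147 ± 39.1 CPM in CCI-ION and 119.8 ± 47.5 CPM in sham (SD, n = 3 each). The log2 fold change was 0.29 ± 0.32 (SE; 95% interval -0.45 to 1.03, edgeR adjusted p = 0.899). Within pairs of the same number the log2 difference, CCI-ION minus sham, was -0.35, 1.26 and 0.10 for numbers 1 to 3. With the block the log2 fold change was 0.32 ± 0.46 (95% interval -1.39 to 2.04, edgeR adjusted p = 0.761). Without both libraries numbered 2 the blocked value was -0.12, and without both numbered 1 it was 0.68 (edgeR adjusted p = 0.353).

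Its partner miR-451-3p was almost unread, at 1, 0 and 2 counts in CCI-ION libraries and 6, 0 and 2 counts in sham libraries. Against 11 counts of this arm over all libraries, miR-451-5p had 7753. No fold between groups is given for miR-451-3p, since all but sham library 1 were at or under the limit of 3 counts.

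miR-144-5p had 18.4, 17.7 and 17.2 CPM in CCI-ION libraries 1 to 3, against 19.1, 9.87 and 13.8 CPM in sham libraries 1 to 3. The 3 CCI-ION values were close together and lay within the range of the sham values, of which library 1 was the highest. The log2 fold change was 0.32 ± 0.25 (95% interval -0.27 to 0.90, edgeR adjusted p = 0.844), and 0.34 ± 0.19 with the block (adjusted p = 0.279).

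miR-144-3p, the arm from the other side of the same hairpin, had 27.7, 9.33 and 5.78 CPM in CCI-ION libraries 1 to 3, against 43.0, 5.80 and 8.83 CPM in sham libraries 1 to 3. Both libraries numbered 1 were far above the other 4, and the groups overlapped. Over all 6 libraries its level varied 7.43-fold, the widest range of the 6 tested members. The log2 fold change was -0.42 ± 0.84 (95% interval -2.38 to 1.55, edgeR adjusted p = 0.947), and it was 0.03 with both libraries numbered 1 left out.

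miR-486 was the most abundant of the red cell miRNAs. It had 618, 251 and 269 CPM in CCI-ION libraries 1 to 3, against 536, 190.3 and 273 CPM in sham libraries 1 to 3. Library 1 of each group was again the highest, and libraries 2 and 3 of both groups lay within 190.3 to 273 CPM. The means were 379 ± 207 CPM in CCI-ION and 333 ± 181 CPM in sham (SD, n = 3 each). The log2 fold change was 0.19 ± 0.47 (95% interval -0.92 to 1.3, edgeR adjusted p = 0.947). With the block the value was 0.19 ± 0.11 (adjusted p = 0.284).

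The red cell rows together held 0.0841%, 0.0454% and 0.0394% of miRNA counts in CCI-ION libraries 1 to 3, against 0.0817%, 0.0277% and 0.0398% in sham libraries 1 to 3. miR-486 supplied 53.6% to 77.3% of those counts in CCI-ION libraries and 66.7% to 69.6% in sham libraries. The 2 arms of miR-126a held far more, 1.15%, 1.48% and 1.31% in CCI-ION libraries and 1.1%, 1.43% and 1.43% in sham libraries. How well each miRNA is ligated and amplified also affects such comparisons between miRNAs.

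miR-126a-3p, the main endothelial miRNA, ranked between place 13 and place 17 among all miRNAs in every library. It had 10868, 15147 and 13443 CPM in CCI-ION libraries 1 to 3, against 10268, 14554 and 14314 CPM in sham libraries 1 to 3. In both groups library 1 was the lowest, and the group means nearly coincided, at 13153 ± 2154 CPM in CCI-ION and 13046 ± 2408 CPM in sham (SD, n = 3 each). The log2 fold change was 0.01 ± 0.19 (95% interval -0.43 to 0.45, edgeR adjusted p = 0.993). With the block the interval was -0.17 to 0.20, the narrowest of the 6 tested members.

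miR-126a-5p, known in mouse endothelium for repressing Dlk1, had 83.7, 183 and 113 CPM in CCI-ION libraries 1 to 3, against 103.7, 193 and 156 CPM in sham libraries 1 to 3. It was lower in CCI-ION in 3 of 3 pairs of the same number, while the ranges of the groups overlapped. The log2 fold change was -0.25 ± 0.33 (95% interval -1.04 to 0.53, edgeR adjusted p = 0.923). With the block it was -0.28 ± 0.11 (95% interval -0.51 to -0.05), and the adjusted p of 0.106 did not pass.

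**Figure D1:**
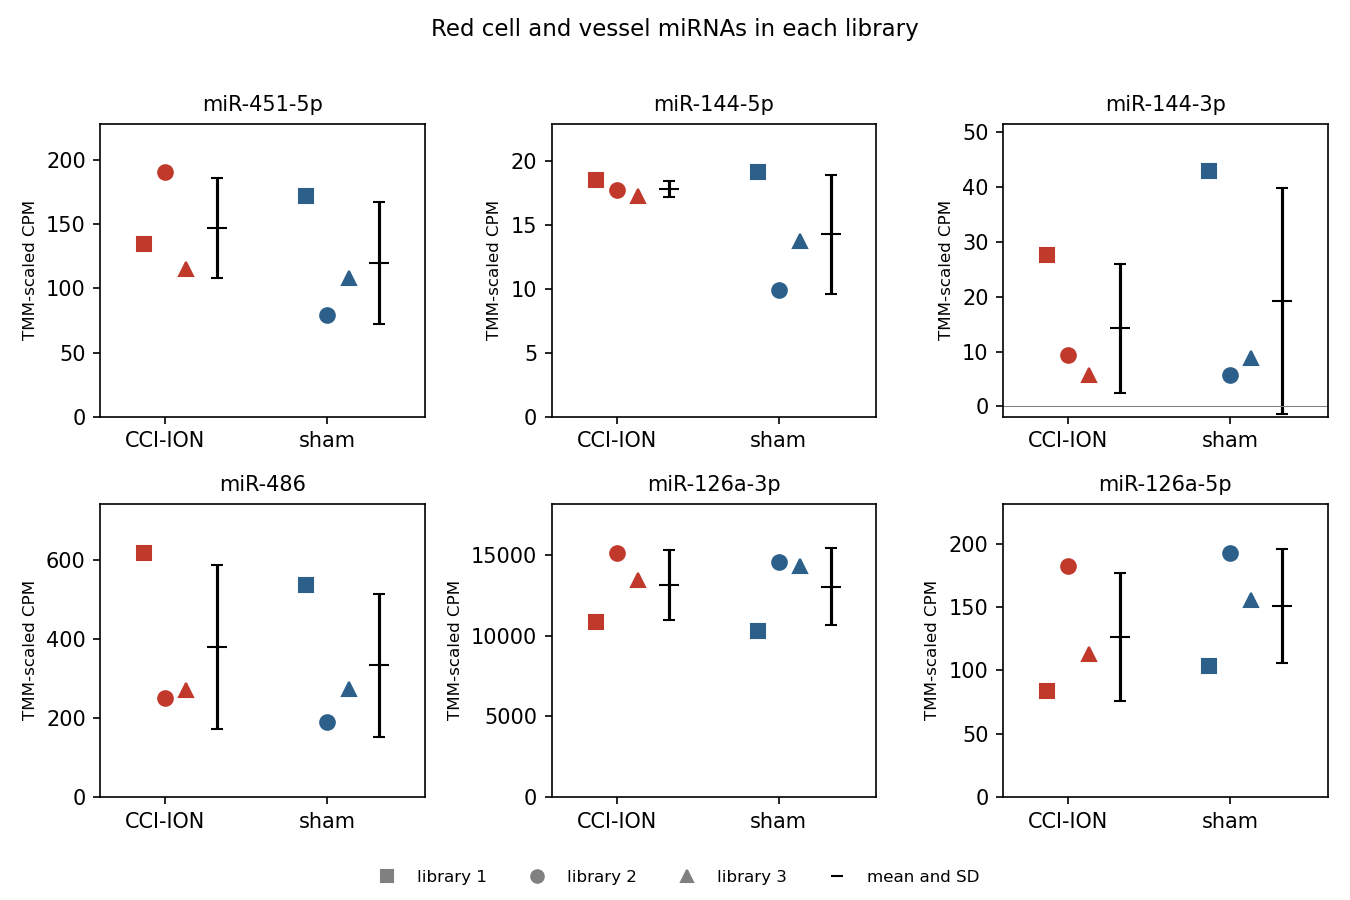
TMM-scaled CPM of the 6 tested miRNAs in each library, CCI-ION in red and sham in blue, with symbols for the library number and the mean and SD of each group in black. The squares, library 1 of each group, stand highest for miR-144-3p and miR-486 and lowest for miR-126a-3p and miR-126a-5p, and the groups overlap in every panel.

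**Figure D2:**
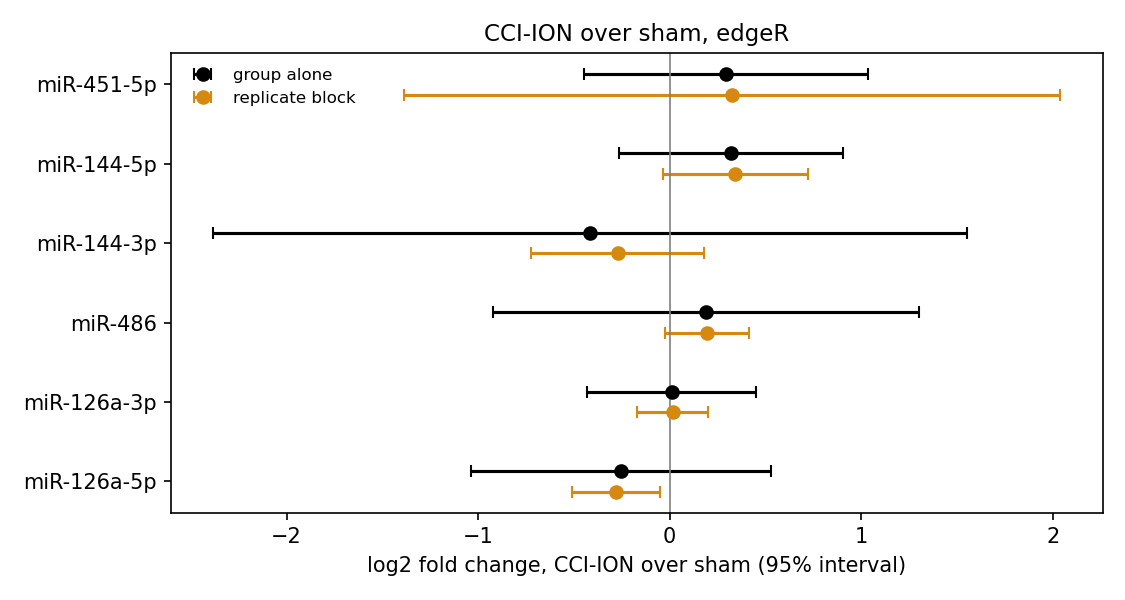
log2 fold change of CCI-ION over sham from edgeR with its 95% interval, for the fit on group alone (black) and with the replicate block (orange). The intervals include 0 except that of miR-126a-5p with the block, -0.51 to -0.05, which is not adjusted for the number of miRNAs tested.

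On the deposited RPM scale, which divides by a larger total that also counts reads outside the table, no member separated the groups either. The ratio of mean RPM, CCI-ION over sham, was 0.971 for miR-451-5p, 0.999 for miR-144-5p, 0.614 for miR-144-3p, 0.921 for miR-486, 0.782 for miR-126a-3p and 0.640 for miR-126a-5p. Two-sided exact permutation p-values on log2(RPM + 1) ranged from 0.3 to 1.0 over these 6, where 0.1 is the smallest possible with 3 libraries against 3. On this scale the median log2 fold change of all tested miRNAs was -0.34, against 0.01 with TMM factors. miRNA counts made up 45.4% to 55.8% of that total in CCI-ION libraries and 52.3% to 66.6% in sham libraries.

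Among the members, miR-144-3p, miR-486 and both arms of miR-126a differed between library 1 and libraries 2 and 3 in the same direction in both groups, by more than their log2 fold change between CCI-ION and sham. miR-451-5p and miR-144-5p did not do so in CCI-ION. The log2 CPM of library 1 minus the mean of libraries 2 and 3 was 1.88 in CCI-ION and 2.55 in sham for miR-144-3p. Averaged over both groups this was the highest of all 463 tested miRNAs. For miR-486 it was 1.25 in CCI-ION and 1.23 in sham, place 8 from the highest. The lower of the libraries numbered 1 had 536 CPM of miR-486, and the highest of the other 4 had 273 CPM. miR-144-5p differed by 0.08 in CCI-ION and 0.70 in sham, and miR-451-5p by -0.14 in CCI-ION and 0.89 in sham. The endothelial miRNA went the other way in both groups: miR-126a-3p differed by -0.39 in CCI-ION and -0.49 in sham, and miR-126a-5p by -0.78 in CCI-ION and -0.74 in sham.

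Such a split was common in the table. Both libraries numbered 1 lay above the other 4 for 97 of 463 tested miRNAs (21.0%) and below them for 91 (19.7%). Among the members, miR-144-3p, miR-144-5p and miR-486 lay above, both arms of miR-126a lay below, and miR-451-5p did neither. The comparison of libraries by number was chosen after the values were seen and carries no test. The libraries numbered 1 also had the larger totals behind the RPM. Across the 463 tested miRNAs the difference correlated with the GC share of the sequence (Pearson r = 0.40). The GC share was 63.6% for miR-486, 45.5% for miR-126a-3p, 38.1% for miR-126a-5p, 36.4% for miR-451-5p, 30.4% for miR-144-5p and 30.0% for miR-144-3p, and the median of tested miRNAs was 47.8%. The sources used here do not say what the number stands for, and the part of depth or of sequence in these differences was not tested.

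**Figure D3:**
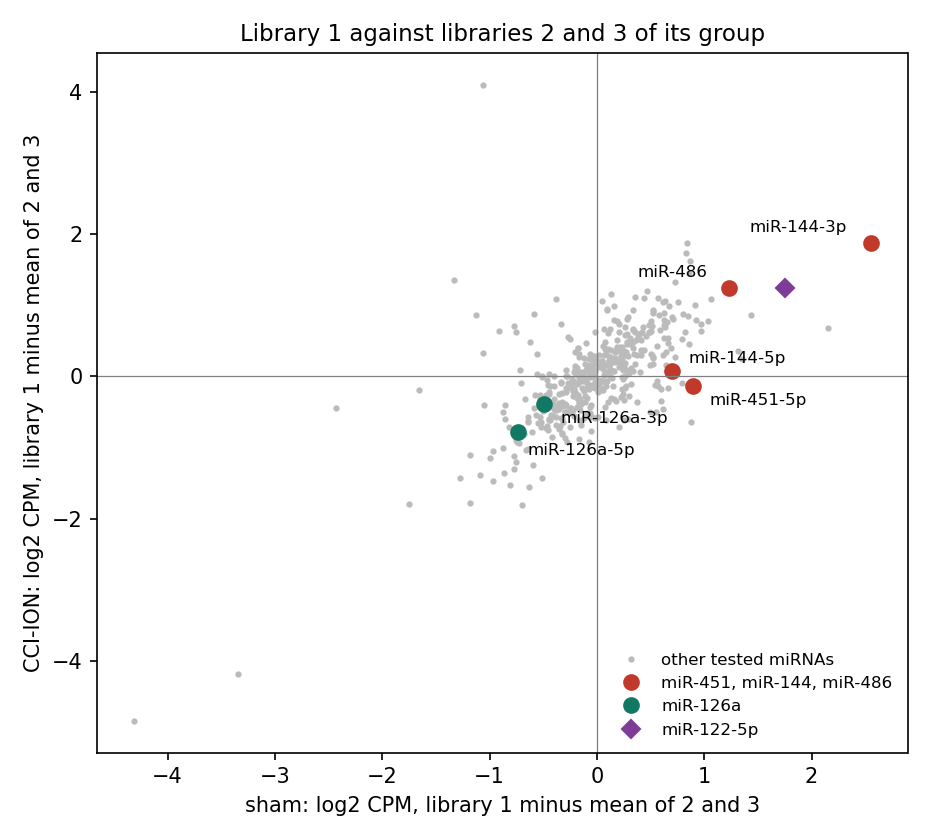
Difference in log2 CPM between library 1 and the mean of libraries 2 and 3, in CCI-ION (vertical) and sham (horizontal), for all 463 tested miRNAs. miR-144-3p, miR-486 and miR-122-5p (diamond) lie at the upper right, and both arms of miR-126a lie below 0 in both groups. Not marked are 5 further miRNAs abundant in red cells, whose differences averaged over both groups lay between -0.26 and 0.33.

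Ratios of counts within a library do not depend on how libraries are scaled. The ratio of miR-144-3p to miR-144-5p, 2 arms of one hairpin, was added after the values were seen. It was 1.5, 0.527 and 0.336 in CCI-ION libraries 1 to 3, against 2.25, 0.588 and 0.642 in sham libraries 1 to 3. The 3p arm was thus the more abundant in both libraries numbered 1, and the 5p arm in the other 4. Of 133 miRNAs with both arms tested, 12 had a different more abundant arm in some libraries than in others, whether or not this followed the library number. The log2 ratio of library 1 minus the mean of libraries 2 and 3, averaged over both groups, was 1.83 for miR-144, the next to highest of the 133 after miR-450b. Between groups the mean log2 ratio was -0.64 ± 1.11 in CCI-ION and -0.08 ± 1.08 in sham (SD, n = 3 each, two-sided exact permutation p = 0.5), and the ratio was lower in CCI-ION in 3 of 3 pairs.

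For miR-126a the 3p arm outnumbered the 5p arm 130-fold, 83.0-fold and 119-fold in CCI-ION libraries 1 to 3, against 99.0-fold, 75.4-fold and 91.9-fold in sham libraries 1 to 3. The ratio was higher in CCI-ION in 3 of 3 pairs, with overlap between groups. The mean log2 ratio was 6.76 ± 0.34 in CCI-ION and 6.46 ± 0.20 in sham (SD, n = 3 each), a difference of 0.30 with a two-sided exact permutation p of 0.3. Leaving out CCI-ION library 1 gave 0.17, leaving out CCI-ION library 2 gave 0.49, and leaving out sham library 2 gave 0.19. Exchanging groups within pairs gave an exact p of 0.25, the smallest that 3 pairs allow.

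Both miR-451-5p and miR-486 are known from red cells, and miR-486 also from muscle. The ratio of miR-451-5p to miR-486 was 0.218, 0.760 and 0.428 in CCI-ION libraries 1 to 3, against 0.321, 0.417 and 0.395 in sham libraries 1 to 3. It was not constant, and CCI-ION libraries 1 and 2 were its lowest and highest values. The difference in mean log2 ratio, CCI-ION minus sham, was 0.14 (two-sided exact permutation p = 0.7, n = 3 each). The ratio of miR-451-5p to miR-23a-3p, a broadly expressed miRNA, is used in plasma as an index of red cell content. Here miR-451-5p was 0.0508, 0.0748 and 0.0517 of miR-23a-3p in CCI-ION libraries 1 to 3, against 0.0605, 0.0376 and 0.0553 in sham libraries 1 to 3. The log2 difference of this ratio was 0.21 (two-sided exact permutation p = 0.6, n = 3 each). miR-23a-3p itself was higher in both libraries numbered 1 than in the other 4, its log2 CPM differing by 0.16 in CCI-ION and 0.49 in sham, so the ratio also carries that split.

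**Figure D4:**
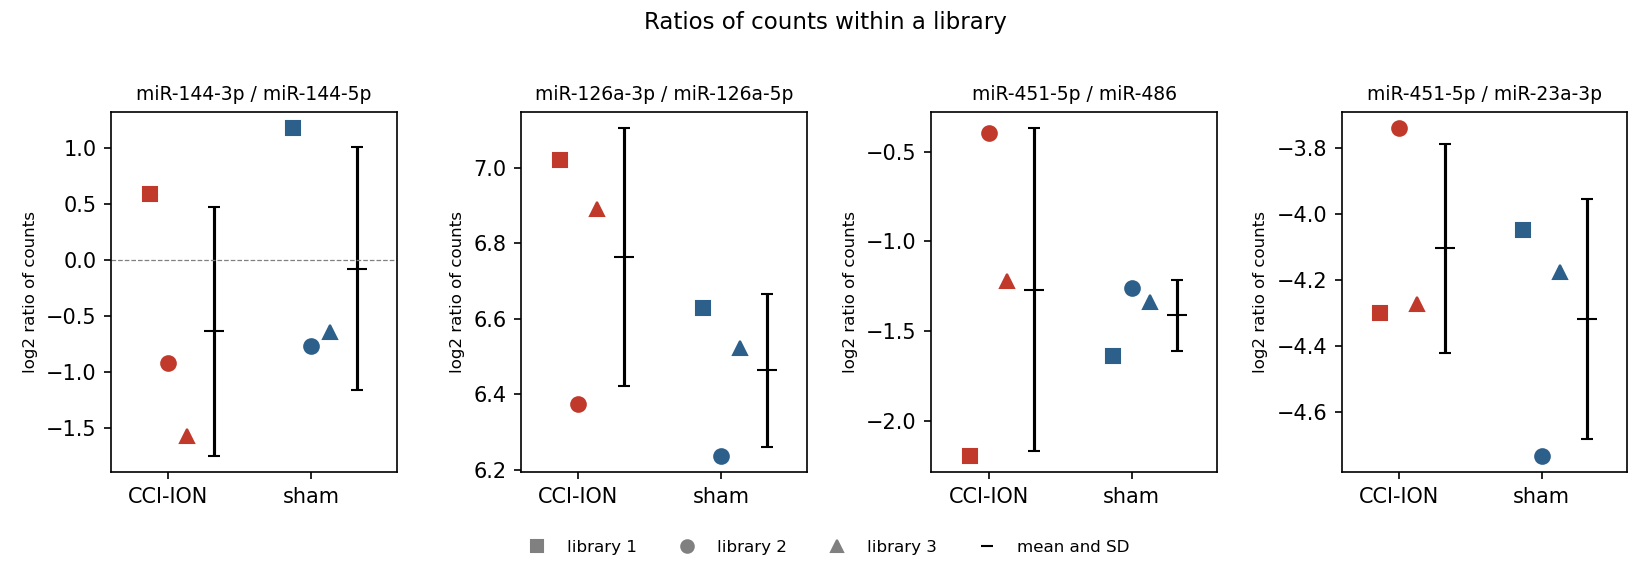
log2 ratios of counts within each library, CCI-ION in red and sham in blue, with the mean and SD of each group in black. The miR-144 arms change places between library 1 and libraries 2 and 3, the dashed line marking equal counts, and no ratio separates CCI-ION from sham.

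Other lists of blood and vessel miRNAs were described by their counts and medians. Across all tested miRNAs the median log2 fold change was 0.01 without the block and 0.00 with it. Of all tested miRNAs, 0.648% passed on group alone and 11.7% with the block. Of 5 further miRNAs abundant in red cells, 0 passed in either fit. Their median was 0.05, and the most abundant, miR-25-3p, had 1485 ± 89.0 CPM in CCI-ION and 1356 ± 84.4 CPM in sham (SD, n = 3 each). miR-16-5p had 1199 ± 116 CPM in CCI-ION and 1155 ± 129 CPM in sham. These 5 are made by many cell types, and miR-92a-3p is in the endothelial list too. miR-122-5p, made by the liver and found in plasma, had 5.43, 1.93 and 2.42 CPM in CCI-ION libraries 1 to 3, against 6.84, 2.34 and 1.51 CPM in sham libraries 1 to 3. It too was highest in library 1 of each group and was not called (edgeR adjusted p = 0.993). The 5 further red cell miRNAs did not all do so. Averaged over both groups, their log2 CPM of library 1 minus the mean of libraries 2 and 3 was mixed in sign. It was -0.26 for miR-185-5p, -0.25 for miR-16-5p, -0.07 for miR-25-3p, 0.06 for miR-363-3p and 0.33 for miR-92a-3p.

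Leukocyte and platelet miRNAs were higher in CCI-ION with the block in 3 of 7 tested and lower in 0, where 6.05% of all tested miRNAs were higher and 5.62% lower. Without the block 0 of 7 passed. The 3 were miR-142-3p, miR-342-3p and miR-155-5p. miR-142-3p, found in nearly all blood cells but mature red cells, had 76.9, 71.7 and 65.8 CPM in CCI-ION libraries 1 to 3, against 57.5, 33 and 40.8 CPM in sham libraries 1 to 3, with no overlap. With the block its log2 fold change was 0.73 ± 0.14 (edgeR adjusted p = 5.02e-05), and on group alone 0.71 ± 0.22 (edgeR adjusted p = 0.316). The most abundant of the list, miR-150-5p, had 186 ± 28.9 CPM in CCI-ION and 163 ± 5.48 CPM in sham (SD, n = 3 each) and was not called. The list median was 0.46 with the block, and all 7 tested members were above 0. They included both arms of miR-142 and both arms of miR-223, so they were not 7 independent miRNAs. Neither miR-451-5p nor miR-486 was called beside them, and the difference between the leukocyte and the red cell miRNAs was not tested.

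Among 14 miRNAs linked to endothelium and angiogenesis, 2 were higher and 1 lower in CCI-ION with the block, and 0 passed without it. With the block, 6.05% of all tested miRNAs were higher and 5.62% lower. miR-221-3p rose with the block (log2 fold change 0.45 ± 0.11, edgeR adjusted p = 0.00231), as did miR-10a-5p (0.35 ± 0.10, adjusted p = 0.0113), and miR-218a-5p, also a miRNA of motor neurons, fell (-0.33 ± 0.10, adjusted p = 0.0223). None of these marks the endothelium alone. Of 4 arms of miR-143 and miR-145, made by the mural cells around vessels, 0 passed in either fit, and the most abundant, miR-143-3p, had 22851 ± 6993 CPM in CCI-ION and 23202 ± 4684 CPM in sham (SD, n = 3 each).

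Since miR-486 is also made in muscle, muscle miRNAs are given beside it. The list held 0.388% to 0.877% of miRNA counts in CCI-ION libraries and 0.594% to 1.1% in sham libraries, and 2 of 7 tested members, miR-1b and miR-133a-3p, fell with the block, where 5.62% of all tested miRNAs were lower. Without the block 0 of 7 passed (edgeR adjusted p = 0.833 for miR-1b and 0.316 for miR-133a-3p). miR-1b is nearly identical to miR-1-3p, and miR-133a-3p to miR-133b-3p, so their counts are uncertain. Its most abundant member, miR-1b, had 3234, 8217 and 6264 CPM in CCI-ION libraries 1 to 3, against 5026, 10480.0 and 9650 CPM in sham libraries 1 to 3. Library 1 was the lowest of each group for miR-1b and the highest for miR-486. Not all muscle miRNAs were like miR-1b: for miR-133b-3p library 1 was the highest in CCI-ION (18.7 CPM) and the lowest in sham (9.91 CPM). Which cells the miR-486 counts came from was not tested. Of the 5 sensory neuron miRNAs, 1 passed with the block, miR-124-3p (log2 fold change -0.48 ± 0.11, edgeR adjusted p = 0.000927), and 0 without it. With the block 11.7% of all tested miRNAs passed.

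**Figure D5:**
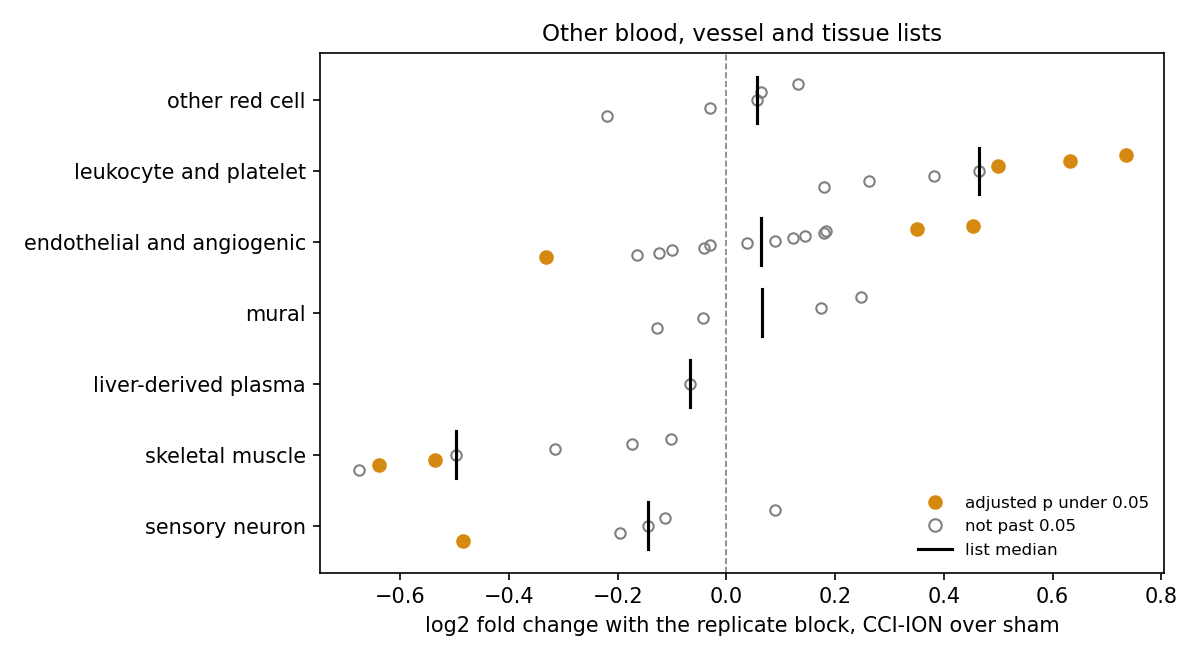
log2 fold change with the replicate block for each tested member of 7 lists, filled where the adjusted p was under 0.05, with the list median as a bar. All 7 leukocyte and platelet miRNAs lie above 0 and all 7 muscle miRNAs below 0, while the red cell, mural and endothelial lists spread around 0. Some members of a list are arms of one hairpin and so are not independent.

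The miRNAs whose log2 CPM over the 6 libraries was most like that of each member were found among 323 tested miRNAs with a mean of at least 10 CPM. miR-142-5p was nearest to miR-451-5p (Pearson r = 0.91) and miR-142-3p to miR-144-5p (r = 0.91). Next came miR-450a-5p for miR-451-5p (r = 0.87) and miR-668 for miR-144-5p (r = 0.90). Apart from the arms of miR-142, no miRNA of the leukocyte and platelet list was among the nearest 3 of any member. miR-144-3p was nearest to miR-136-5p (r = 0.98) and miR-486 to let-7e-5p (r = 0.97). miR-126a-3p was nearest to miR-186-5p (r = 0.99) and miR-126a-5p to miR-499-5p of the muscle list (r = 0.996). After each group mean was taken off, the nearest were miR-450a-5p for miR-451-5p (r = 0.93), miR-142-3p for miR-144-5p (r = 0.98), miR-879-5p for miR-144-3p (r = 0.99), miR-541-5p for miR-486 (r = 0.985), miR-20a-5p for miR-126a-3p (r = 0.998) and miR-708-5p for miR-126a-5p (r = 0.9996). With 6 libraries, of which those numbered 1 stood apart, these coefficients also describe that split and are given without a test.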

How the data were processed

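The authors deposited raw counts for 650 mature miRNAs with their sequences, and 1 file of RPM values per library. cutadapt 1.14, Bowtie 1.1.1 and build rn6 are named per the submitters' processing notes; the sources used here name no counter or miRNA annotation. Libraries were made from total RNA of frozen ganglia, per the labels' protocols. Dividing each deposited RPM value by its library's step returned the count in the deposited table (whole reads recovered from 100% of values within 0.01 read), so a count test on them is the same test. RPM totals exceed the miRNA counts, and what they count is not stated.

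Counts of all miRNAs were tested with edgeR 4.0.16 in R 4.3.3 (quasi-likelihood F test, robust fit, TMM factors, filterByExpr, group alone) with Benjamini-Hochberg adjusted p under 0.05. The filter kept 463 miRNAs. SEs are the log2 fold change over the root of F, and 95% intervals use the fit's degrees of freedom. Alternatives were the replicate number as a block, DESeq2 1.42.0, limma-voom (limma 3.58.1), other scalings, no filter and libraries left out. Same-numbered libraries correlated at 0.664, 0.591 and 0.457 in their deviations from group means. Libraries of different number correlated between -0.614 and 0.166. Deviations within a group cancel out, so these coefficients are tied to one another and are not separate evidence of pairing. The block therefore rests on these same data and not on a stated pairing, and the main fit was on group alone. The variance borrowed from all miRNAs weighed more with the block (median prior degrees of freedom 54.5, against 3.3 on group alone). log2 CPM used a prior count of 2. The procedure was also run on simulated counts, with planted log2 changes larger than those of the members in either fit. That run therefore does not show whether changes as small as theirs would be called. Members and lists were chosen with earlier results of these data known. Named miRNAs were the members, the 2 most abundant and the called miRNAs of each list, and the nearest by correlation.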

Additional observations from a re-analysis of the deposited data

How the results depend on the processing

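No member was called under any of the 20 alternatives, the replicate block included (0 calls among members), so the signs below are those of values that did not pass. With the RPM totals as library sizes, which moved the median of all miRNAs to -0.34, the log2 fold changes were -0.043 for miR-451-5p, -0.0055 for miR-144-5p, -0.12 for miR-486 and -0.35 for miR-126a-3p, each of opposite sign to the value with TMM factors. The ratio of mean shares of miR-126a-3p was also -0.35 (log2) on the RPM scale. miR-126a-3p was -0.0011 with the total miRNA count alone and -0.016 with no filter. With the replicate block and both libraries numbered 1 left out, miR-126a-3p was -0.018 and miR-144-3p 0.027; on group alone they were -0.016 and 0.032, an alternative added after seeing the data. With the block and without both numbered 2, miR-451-5p was -0.12. Leaving out single libraries moved miR-144-3p between -1.37 and 0.99, miR-486 between -0.36 and 0.71, and miR-126a-3p between -0.13 and 0.13. It moved the difference in the log2 ratio of miR-451-5p to miR-486 between -0.30 and 0.60, and that of the miR-144 arms between -1.17 and 0.065. miR-126a-5p was negative under all 20 alternatives, but moved between -0.64 with the RPM totals and -0.030 without CCI-ION library 1. It was -0.60 without CCI-ION library 2 and -0.042 without sham library 2. Leaving out single libraries moved miR-451-5p between 0.07 and 0.65 and miR-144-5p between 0.11 and 0.59.

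Among all tested miRNAs, 3 were called, 54 with the replicate block, 13 by DESeq2, 44 by DESeq2 and 56 by limma-voom with the block, 6 under the RPM totals and 6 with no filter. Leaving out single libraries gave 1 to 7. With the block, leaving out the libraries numbered 1, 2 or 3 gave 45, 31 and 5, and on group alone without those numbered 1 it was 12. The other red cell, leukocyte and platelet, endothelial and mural lists had 5, 7, 14 and 4 tested members, with miR-92a-3p in both the red cell and endothelial lists. Of all tested miRNAs, 0.648% were called on group alone and 11.7% with the block. Of the other blood and vessel lists 0 members were called on group alone and 6 with the replicate block (5 by DESeq2, 6 by limma-voom). With the block, leaving out the libraries numbered 1, 2 or 3 gave 5, 1 and 0 members, beside 45, 31 and 5 of all tested. On group alone without those numbered 1 it was 1, beside 12 of all tested. The cause of these changes was not tested. With 3 libraries a group, the widest interval on group alone, that of miR-144-3p, spanned -2.38 to 1.55. With the replicate block that of miR-144-3p was -0.72 to 0.18, and the widest was that of miR-451-5p, -1.39 to 2.04.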
